A study of Arabidopsis thaliana with 18 samples.

Results

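The 5 genes described here encode the bHLH and WD40 parts of the MYB-bHLH-WD40 complex of Arabidopsis thaliana. They are the subgroup IIIf bHLH genes TT8 (AT4G09820), GL3 (AT5G41315), EGL3 (AT1G63650) and MYC1 (AT4G00480) and the WD40 repeat gene TTG1 (AT5G24520). They were taken by locus identifier and make up 5 of the 32547 nuclear loci counted in every library. In the complex an R2R3 MYB protein and a bHLH protein bind DNA together, and TTG1 holds the assembly. With anthocyanin or tannin MYB partners it switches on the late flavonoid genes and TT8 itself, and with other MYB partners it sets trichome, root hair and seed coat fates. TT8 is best known for flavonoid control, GL3 and EGL3 for trichomes and for the hairless files of the root epidermis, and MYC1 for a supporting part in the same epidermal fates.

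The study profiled whole seedlings of candidate transparent testa mutants, lines in which flavonoid genes carry insertions, and of the wild type Col-0. All seedlings had been shaken for 4 days in 3% sucrose under 24 h light, a condition named AIC in the labels and not expanded there. The mutants were ban-6 and ban-7 (anthocyanidin reductase), tt1-4 and tt1-5 (a zinc finger protein), tt3-3 and tt3-4 (dihydroflavonol reductase, DFR), tt5-3 and tt5-4 (chalcone isomerase), tt8-7, tt8-8, tt8-9, tt8-10, tt8-11 and tt8-12, and ttg1-23 and ttg1-24. Each allele had 1 mRNA library, and the deposited values were read counts per gene. The alleles came from the SALK, SAIL and GK insertion collections. The 8 libraries of the ban, tt1, tt3 and tt5 alleles carry no labelled lesion in the 5 genes and are called the reference libraries here, although they are flavonoid mutants and not wild type.

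Library totals were lowest in ttg1-24, at 8057534 counts, and highest in tt3-4, at 27145377. Differences between the 2 Col-0 files stayed under sampling noise (chi-square divided by its degrees of freedom, 0.222 over 18979 genes, against 9.54 to 143 for pairs of alleles of 1 locus). They were counted as 1 sample, so Col-0 has no spread of its own. Levels are counts per 1000000 counts of the library (CPM), with exact 95% Poisson intervals that cover counting error only. In these whole seedlings, fewer cells of a type and less RNA per cell cannot be told apart. The marker lists fixed for seedling tissues were found in every library: all 4 shoot epidermis genes and at least 6 of 7 root hair and 6 of 7 green tissue genes had counts. Their sums are led by few genes. RBCS1A had a median of 157 CPM, where the green tissue sum had a median of 175 CPM. PDF1 and FDH had medians of 198 and 101 CPM, where the shoot epidermis sum had a median of 388 CPM. Seed reserve transcripts varied most, from a sum of 377 CPM in ban-6 to 24200 CPM in tt1-4, and their part in the results below was not tested.

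TTG1 lies at chr5:8370317-8372847 on the minus strand of TAIR10.1 and has 4 annotated transcripts of 2 or 3 exons. It was the steadiest of the 5 genes. In the reference libraries it ranged from 22.7 to 28.6 CPM with a median of 25.9, in the 6 tt8 libraries from 23.6 to 28.1 CPM with a median of 25.6, and Col-0 stood at 30.4 CPM. Over the 15 samples outside ttg1 its coefficient of variation was 8.74%, against 26.8% for GL3, 33.6% for MYC1, 37.2% for EGL3 and 93.5% for TT8. Ordered by mean level the groups ran from Col-0 over tt5, ban, tt3, tt8 and tt1 to ttg1. Neighbours in this order overlapped, except that Col-0 lay above tt5 and tt1 above ttg1.

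The ttg1 alleles differed from each other at TTG1. The library of ttg1-23 held 429 TTG1 counts, 15.9 CPM (14.4 to 17.5), which is 61.7% of the reference mean. That of ttg1-24 held 0 counts, which allows up to 0.372 CPM or 1.44% of the reference mean. Both lay below each of the 15 other samples. The fitted log2 fold change of ttg1 against the reference libraries was −1.57 ± 0.75 (SE, edgeR adjusted p = 0.291). With ttg1-23 alone the value was −0.66. With ttg1-24 alone the call passed (adjusted p = 9.99e-07, the range over all alternatives being 9.99e-07 to 0.637), but that fit sets 1 library with 0 counts against the others and takes its spread from the other groups. A count over the gene does not show whether the transcript left in ttg1-23 is whole.

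The loss in ttg1-24 reached beyond TTG1. AT5G24490 had 1 count, AT5G24500 had 0, AT5G24510 had 0, TTG1 had 0 and DMR6, a salicylate hydroxylase gene, had 1. The lowest level elsewhere was 6.27 CPM for AT5G24490, 16.3 CPM for AT5G24500 and 13.2 CPM for DMR6, whereas AT5G24510 had as few as 3 counts in another sample. These 5 genes follow each other from 8365601 to 8383401 of chromosome 5, a span of 17.8 kb, and AT5G24490 and AT5G24500 overlap. On one side the nearest gene with counts beyond them, the clock gene PRR5, stood at 154 CPM in ttg1-24, inside the 60.3 to 171 CPM seen outside ttg1. On the other side BGLU31 had 3 counts, 0.372 CPM, and BGLU32 had 15 counts, 1.86 CPM, both above the range outside ttg1. In ttg1-23 no gene within 10 places of TTG1 lay over 10 times below the lowest other sample, and DMR6 was at 45.6 CPM. Every statement on ttg1 as a group below rests on 1 library with 5 silent genes and 1 with a partial level of TTG1, and the parts of these genes cannot be told apart in ttg1-24.

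**Figure D1:**
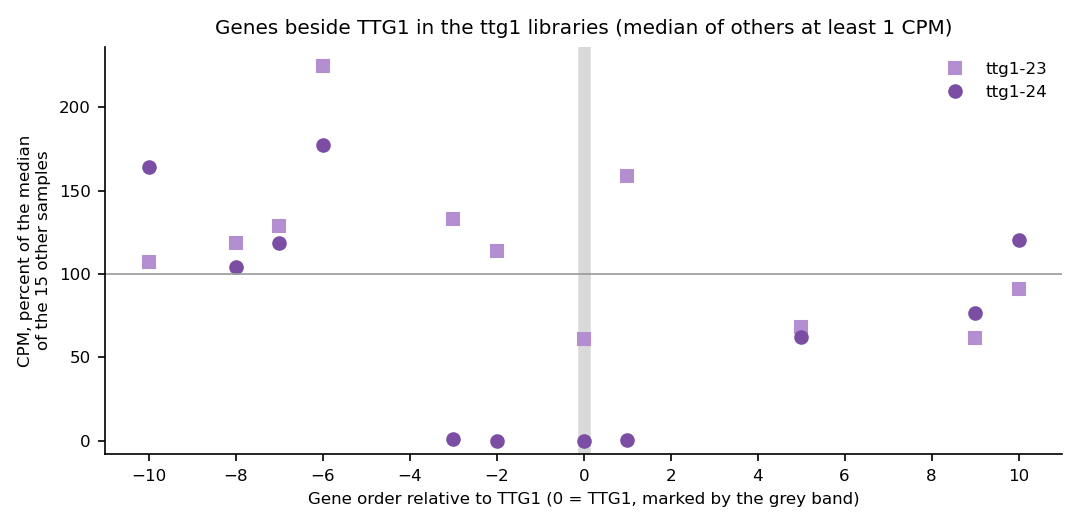
CPM of TTG1 and of the genes up to 10 places to either side, as a percentage of the median of the 15 samples outside ttg1, for genes with a median of at least 1 CPM. The horizontal axis is gene order, with TTG1 at 0 on the grey band. In ttg1-24 the genes at −3, −2, 0 and 1 lie at the bottom of the axis, and in ttg1-23 only TTG1 among these 4 lies below 100%.

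The bHLH genes lie apart from each other in the genome, and none carries a labelled lesion in the reference or ttg1 lines. On TAIR10.1, TT8 lies at chr4:6181881-6186523 (plus strand, 1 transcript of 7 exons), GL3 at chr5:16529090-16533287 (plus strand), EGL3 at chr1:23599413-23603164 (plus strand) and MYC1 at chr4:216812-219926 (minus strand). GL3, EGL3 and MYC1 have 3 annotated transcripts each. No other counted gene shares exon bases with TT8, EGL3, MYC1 or TTG1. GL3 shares 36 of its 2702 exon bases with AT5G06145 on the opposite strand, which had 0 or 1 counts in each sample.

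The 250 bases before the annotated start are shown for TT8 and GL3, the bHLH genes that were lowest in both ttg1 libraries, and for DFR and TTG2, genes the complex is known to act on. Capitals mark each match to the E-box CANNTG, the letters that bHLH proteins bind; CACGTG, the G-box, is one form of it. The sequences are from the RefSeq copy of TAIR10.1, at chr4:6181631-6181880 (plus), chr5:16528840-16529089 (plus), chr5:17166033-17166282 (minus) and chr2:15644561-15644810 (plus).
TT8: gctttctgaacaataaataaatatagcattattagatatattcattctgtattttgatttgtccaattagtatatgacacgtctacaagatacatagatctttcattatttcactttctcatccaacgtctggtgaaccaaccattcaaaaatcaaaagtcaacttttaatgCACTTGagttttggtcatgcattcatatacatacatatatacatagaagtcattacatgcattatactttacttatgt
GL3: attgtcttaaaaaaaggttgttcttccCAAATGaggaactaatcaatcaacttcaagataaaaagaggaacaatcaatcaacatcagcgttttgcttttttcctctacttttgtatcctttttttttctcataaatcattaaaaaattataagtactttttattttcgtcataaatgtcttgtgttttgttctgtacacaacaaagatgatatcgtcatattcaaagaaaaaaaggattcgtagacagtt
DFR: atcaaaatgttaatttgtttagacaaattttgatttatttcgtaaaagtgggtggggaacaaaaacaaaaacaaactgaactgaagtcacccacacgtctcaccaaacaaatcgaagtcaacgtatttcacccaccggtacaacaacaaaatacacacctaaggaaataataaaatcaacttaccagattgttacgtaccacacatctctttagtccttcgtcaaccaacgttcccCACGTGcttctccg
TTG2: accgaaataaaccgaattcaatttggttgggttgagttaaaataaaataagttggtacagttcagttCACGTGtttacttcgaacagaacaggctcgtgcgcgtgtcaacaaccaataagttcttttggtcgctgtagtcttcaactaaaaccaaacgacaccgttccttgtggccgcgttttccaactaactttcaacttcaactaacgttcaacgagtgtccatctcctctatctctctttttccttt
An E-box lay in 1 copy before TT8 (78 bases before the start), GL3 (223), MYC1 (41) and TTG1 (202), and EGL3 had none. Of the windows of 27438 protein-coding genes, 55.3% hold an E-box on either strand and 6.49% a G-box, so an E-box there is common. DFR and TTG2 have the G-box form, and none of the 5 genes has it in this window. The AC element ACCNAC, a letter pattern bound by R2R3 MYB proteins, was found once before TT8 (114 bases), once before TTG2 and 4 times before DFR, against 23.6% of all windows. The MYB core CNGTTA was found in none of these windows and in 26.6% of all. These matches describe letters and say nothing of binding.

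TT8 was the bHLH gene with the highest level per exon length outside ttg1. Dividing CPM by exon length in kb, TT8 averaged 9.56 CPM per kb in the reference libraries, EGL3 2.70, MYC1 2.08 and GL3 1.83, and TTG1 averaged 13.7. TT8 made up 39.8% to 79.7% of the summed bHLH level in the reference libraries and 57.7% in Col-0, and it led in all 15 samples outside ttg1. In ttg1-23 and ttg1-24 it made up 8.25% and 4.69%, and EGL3 led with 42.1% and 48.5%. The 4 bHLH genes summed to 4.71 and 2.64 CPM per kb in the ttg1 libraries, below Col-0 at 9.97 and below the reference range of 12.7 to 23.1. The ratio of EGL3 to GL3 per exon length was 3.08 and 3.48 in ttg1 and 0.817 to 2.80 in the reference libraries. The ttg1-24 ratio rests on 27 EGL3 and 8 GL3 counts. Counting error of the ratio was not computed, so a separation of the groups is not established.

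**Figure D2:**
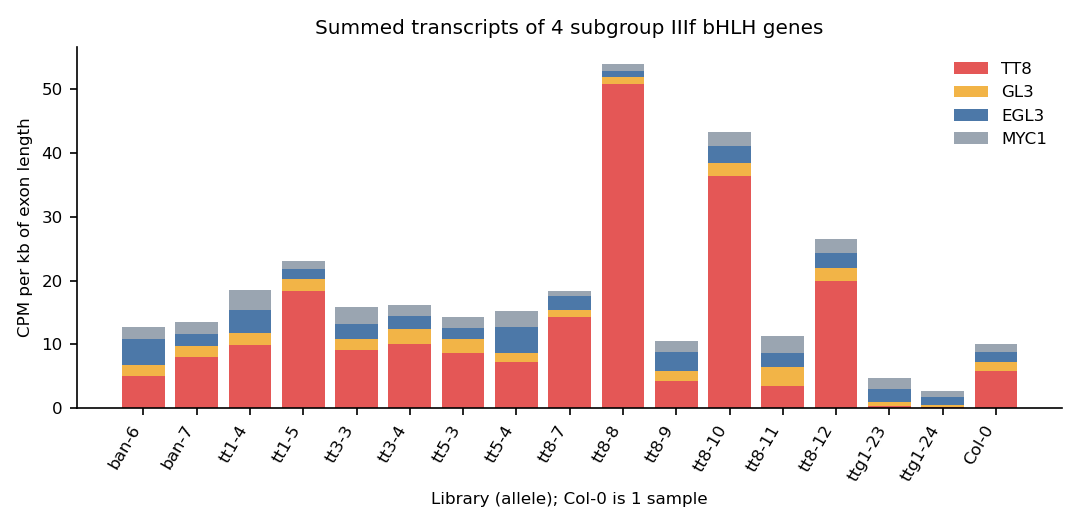
Stacked bars of TT8, GL3, EGL3 and MYC1 in CPM per kb of exon length for each of the 16 mutant libraries and the Col-0 sample. The ttg1 bars are the shortest, at 4.71 and 2.64, and the TT8 segment, which leads in the 15 other samples, is close to nothing there.

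The comparison of ttg1 with the reference libraries addressed how the bHLH genes differ where the WD40 gene is mutated. TT8 had 21 counts in ttg1-23, 0.779 CPM (0.482 to 1.19), and 2 counts in ttg1-24, 0.248 CPM (0.0301 to 0.897). The reference libraries ranged from 10.2 to 36.9 CPM with a median of 17.8. The ttg1 levels were 4.06% (2.52 to 6.21) and 1.3% (0.157 to 4.68) of the reference mean and lay below each other sample, the tt8 libraries included. The log2 fold change was −4.85 ± 1.20 (edgeR quasi-likelihood test, adjusted p = 0.0820), which missed the threshold of 0.05. The fit estimates 1 spread per gene over all 7 groups. For TT8 this error therefore includes the spread among the tt8 alleles, which are outside this contrast. DESeq2 gave −5.01 (adjusted p = 3.38e-06) and edgeR on the ttg1 and reference libraries alone −4.88 (adjusted p = 0.0385). Over all alternatives the adjusted p ran from 3.38e-06 to 0.796.

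GL3 was also lowest in the ttg1 libraries. It stood at 1.74 CPM (1.28 to 2.32) in ttg1-23 and at 0.993 CPM (0.429 to 1.96, 8 counts) in ttg1-24, against 3.92 to 6.04 CPM with a median of 4.79 in the reference libraries. This is 35.2% and 20.1% of the reference mean, with no overlap with the other 15 samples, of which tt8-7 was lowest at 2.76 CPM. The log2 fold change was −1.73 ± 0.39 (adjusted p = 0.0598). It passed in DESeq2 at −1.71 (adjusted p = 0.00217) and without tt8-7 at −1.72 (adjusted p = 0.0316). With the Col-0 files as 2 samples it was at −1.74 (adjusted p = 0.0347). These files differ by less than sampling noise and are outside this contrast, so that setting understates the spread and adds no separate evidence. GL3 passed in none of the other alternatives.

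EGL3 and MYC1 overlapped between ttg1 and the reference libraries. EGL3 was at 5.19 and 3.35 CPM in ttg1-23 and ttg1-24, against 4.28 to 10.7 CPM with a median of 6.0. MYC1 was at 3.63 and 1.86 CPM, against 2.75 to 6.80 CPM with a median of 4.02. Within ttg1 both genes were lower in ttg1-24, and ttg1-23 lay inside the reference range for both. In ttg1-24 both lay below that range. Their intervals there, 2.21 to 4.88 CPM for EGL3 and 1.04 to 3.07 CPM for MYC1, reached into it. The log2 fold changes were −0.63 ± 0.46 for EGL3 (adjusted p = 0.481) and −0.60 ± 0.42 for MYC1 (adjusted p = 0.472).

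In all, 0 of the 5 genes passed the edgeR threshold in this comparison. TT8 and GL3 reached an unadjusted p under 0.05, and DESeq2 called those 2, among 1128 of all 21184 genes. In edgeR 0.788% of the 21184 genes tested were called, 0.595% higher and 0.194% lower, and 3838 reached an unadjusted p under 0.05. The number called, 167, became 0 without ttg1-24, 395 without ttg1-23 and 598 without tt8-7. It was 9 without tt3-3 and at most 86 without tt1-4, tt1-5, tt3-4, tt5-3, tt5-4, tt8-9, tt8-10, tt8-11 or tt8-12. Shoot epidermis transcripts (ATML1, PDF1, PDF2 and FDH) were lowest in ttg1-24, tt8-7 and ttg1-23. Their sum was 217 CPM in ttg1-23 and 146 CPM in ttg1-24, against 332 to 475 CPM in the reference libraries and 399 CPM in Col-0. In tt8-7 the sum was 176 CPM, between the ttg1 libraries, with TT8 at 28.7 CPM and GL3 at 2.76 CPM. The green tissue sum, mostly RBCS1A, was 295 CPM in ttg1-23, 195 CPM in ttg1-24 and 317 CPM in tt8-7, against 88.1 to 233 CPM in the reference libraries. The seed reserve sum was 518 CPM in ttg1-23 and 452 CPM in ttg1-24, inside the reference range of 377 to 24200 CPM. Only ban-6 lay below them, however. The next lowest reference library was tt5-4 at 899 CPM, and the reference median was 2845 CPM. The part of these tissue sums in the GL3 difference was not tested.

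**Figure D3:**
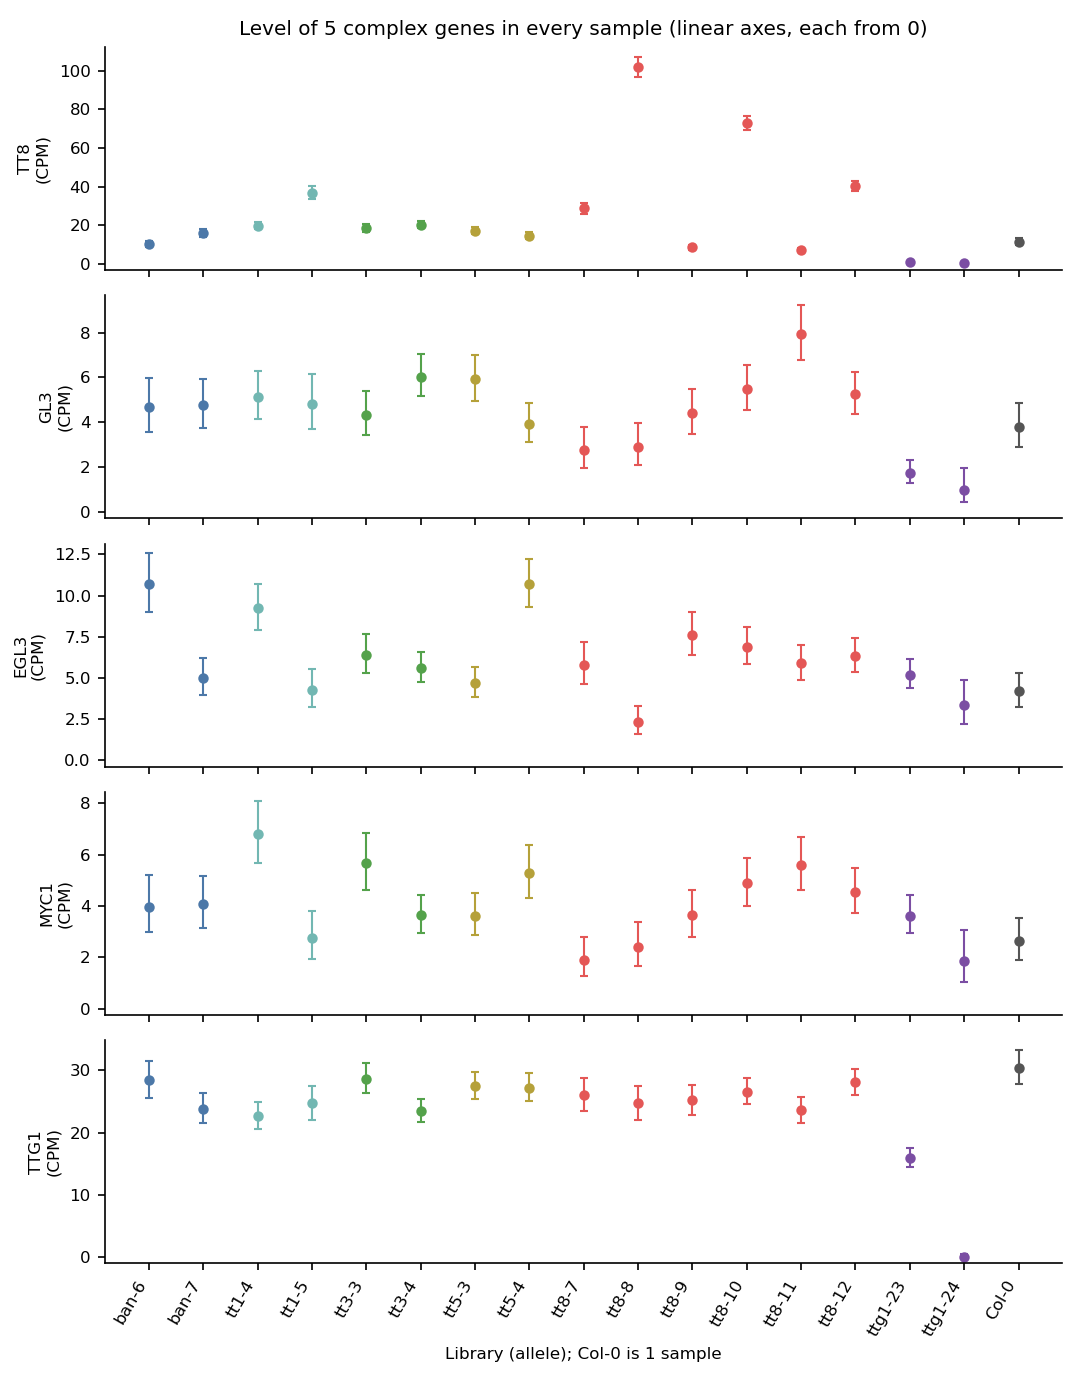
Level of each of the 5 genes in CPM (linear axes, each from 0) in the 16 mutant libraries and the Col-0 sample, coloured by locus, with exact 95% Poisson intervals as bars. TT8 and GL3 are lowest in both ttg1 libraries, TTG1 is at 15.9 and 0 CPM there and between 22.7 and 30.4 CPM elsewhere, and EGL3 and MYC1 overlap between the groups.

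The libraries labelled tt8 addressed the same genes where TT8 itself carries an insertion. TT8 counts did not set these libraries apart as a group. In rising order tt8-11 had 6.97 CPM of TT8, tt8-9 had 8.49 CPM, tt8-7 had 28.7 CPM, tt8-12 had 40.1 CPM, tt8-10 had 73.0 CPM and tt8-8 had 102 CPM, a 14.6-fold range. The lowest pair lay below the reference range of 10.2 to 36.9 CPM, tt8-7 lay in it, and the highest 3 lay above it. The log2 fold change was 1.28 ± 0.53 (unadjusted p = 0.0309, adjusted p = 1 in edgeR). A count over the whole gene does not show whether a transcript is interrupted, so it does not check the tt8 labels.

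The other genes of the complex overlapped with the reference libraries in the tt8 libraries. GL3 ranged from 2.76 to 7.92 CPM (median 4.83), EGL3 from 2.32 to 7.60 CPM (median 6.12) and MYC1 from 1.91 to 5.60 CPM (median 4.09). The log2 fold changes were −0.02 ± 0.22 for GL3, −0.25 ± 0.30 for EGL3, −0.20 ± 0.27 for MYC1 and 0.03 ± 0.45 for TTG1. For TTG1 this error includes the spread between the ttg1 alleles, which are outside this contrast. Of the 5 genes 0 passed in edgeR, only TT8 reached an unadjusted p under 0.05, and DESeq2 called 0. The share called among all 21184 genes was 0%, with 521 at an unadjusted p under 0.05. At TT8 no gene within 10 places to either side lay over 10 times below the lowest other sample in any tt8 library. Both comparisons share the 8 reference libraries, so their values for the 5 genes are set side by side only.

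**Figure D4:**
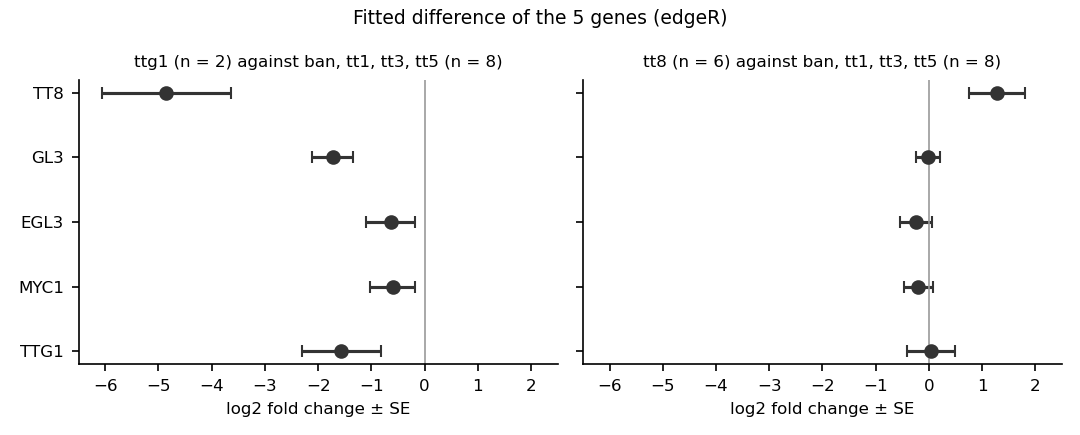
Fitted log2 fold change of each gene with its SE, computed from the F statistic, for ttg1 (left) and tt8 (right) against the 8 reference libraries. In ttg1 TT8 is at −4.85 and GL3 at −1.73, and in tt8 the 4 genes other than TT8 lie between −0.25 and 0.03.

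Within the tt8 libraries the level of TT8 did not order the late flavonoid genes. The libraries with the least TT8, tt8-11 and tt8-9, had 207 and 252 CPM of DFR and 129 and 138 CPM of LDOX, the anthocyanidin synthase. The libraries tt8-7 and tt8-8, with 28.7 and 102 CPM of TT8, had 32.2 and 32.3 CPM of DFR, 25.7 and 31.6 CPM of LDOX and 17.3 and 33.6 CPM of GSTF12, a glutathione transferase needed for anthocyanin transport. For DFR this is below the reference range of 44.7 to 274 CPM. That range includes the lines labelled as DFR mutants, tt3-3 at 211 CPM and tt3-4 at 274 CPM. GL3 (2.76 and 2.91 CPM) and MYC1 (1.91 and 2.40 CPM) were also lower in tt8-7 and tt8-8 than in the 4 other tt8 libraries. The shoot epidermis sum was 176 and 282 CPM in these libraries and 434 to 517 CPM in the 4 others. The seed reserve sum was 1210 and 1530 CPM against 2610 to 3840 CPM. Green tissue was at 317 and 160 CPM against 139 to 189 CPM, and root hair at 14.2 and 29.1 CPM against 28.2 to 42.8 CPM. The part of these sums in the levels above was not tested. The tt8 libraries have no replicate per allele, so differences among them have no check.

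**Figure D5:**
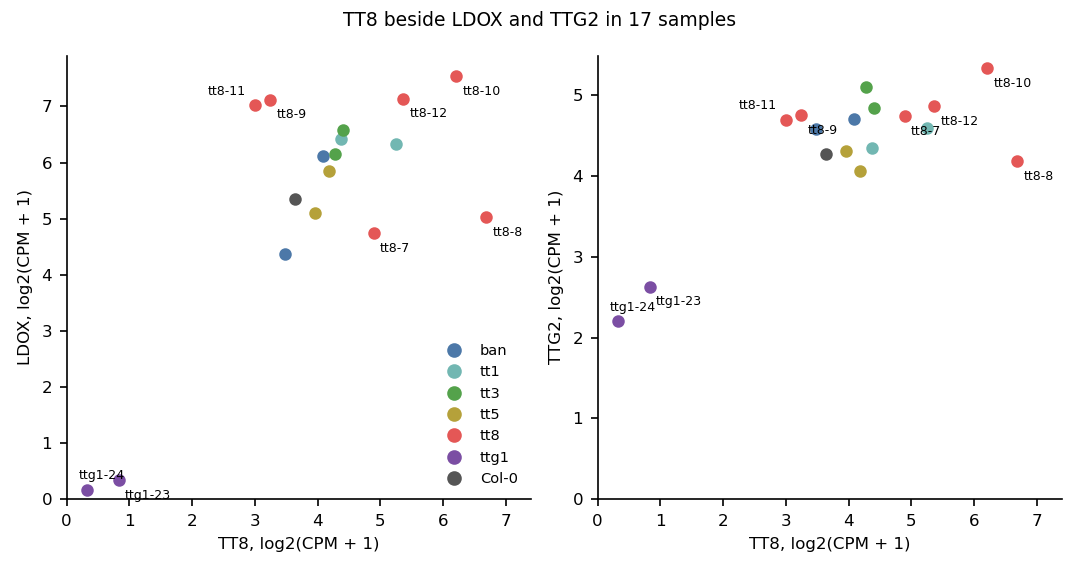
TT8 on the horizontal axis beside LDOX (left) and TTG2 (right), all as log2(CPM + 1), in 17 samples coloured by locus, with tt8 and ttg1 alleles named. The ttg1 libraries lie at the lower left in both panels, and among the tt8 libraries tt8-9 and tt8-11 combine low TT8 with high LDOX while tt8-8 has the highest TT8 with low LDOX.

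Against Col-0, the comparison the series names, none of the 5 genes passed the threshold. The mean of the 6 locus means differed from Col-0 by −0.08 ± 1.01 on the log2 scale for TT8, −0.07 ± 0.43 for GL3, 0.45 ± 0.60 for EGL3, 0.48 ± 0.56 for MYC1 and −0.65 ± 0.82 for TTG1. In edgeR 0 of 5 passed and 0 reached an unadjusted p under 0.05, and DESeq2 called 0 of them. Of all genes 2.32% were called in edgeR, and DESeq2 called 1352 of 21184. Taken by locus, 0 of 30 gene and locus pairs passed in edgeR. The share of all genes called was 0.415% for ban, 1.06% for tt1, 0.411% for tt3, 0.184% for tt5, 2.01% for tt8 and 1.55% for ttg1. In ttg1 TT8 stood at −4.33 ± 1.38 (adjusted p = 0.121) and GL3 at −1.50 ± 0.52 (adjusted p = 0.142), the only 2 pairs that reached an unadjusted p under 0.05, and DESeq2 called 1 of them, TT8 at −4.48 (adjusted p = 0.00877). A DESeq2 share over all genes is not given by locus, so that call has no background beside it. With the 2 Col-0 files as separate samples edgeR called both, TT8 at −4.31 (adjusted p = 0.0345) and GL3 at −1.47 (adjusted p = 0.0363). Those files differ by less than sampling noise, so as 2 samples they understate the spread. Over these alternatives the adjusted p ran from 0.00877 to 0.0345 for TT8 and from 0.0363 to 0.102 for GL3. EGL3 and MYC1 in ttg1 were at −0.03 ± 0.69 and 0.02 ± 0.64 against Col-0, whose own levels of 4.18 and 2.62 CPM are lower than the reference medians. All 6 comparisons share the 1 Col-0 sample. Ordered by mean level, TT8 ran from tt8 over tt1, tt3, tt5, ban and Col-0 to ttg1, and only tt3 over tt5 and Col-0 over ttg1 were neighbours whose ranges did not overlap. GL3 ran from tt3 over tt1, tt5, tt8, ban and Col-0 to ttg1, with Col-0 apart from both neighbours. EGL3 was highest in ban and MYC1 in tt1, both were lowest in Col-0, and all their neighbours overlapped.

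Alleles of 1 locus also differed from each other at these genes. EGL3 differed 2.14-fold between the ban alleles, 2.16-fold between the tt1 alleles and 2.28-fold between the tt5 alleles, and MYC1 differed 2.47-fold between the tt1 alleles. TT8 differed 1.86-fold in tt1 and 1.57-fold in ban. TTG1 differed at most 1.22-fold outside ttg1. Relations across samples were computed for the 10 pairs of genes. EGL3 and MYC1 had Pearson r = 0.62 and Spearman rho = 0.66 over 15 samples outside ttg1 (permutation p = 0.0125 and 0.0099, adjusted over the 10 pairs 0.0755 and 0.0990). Without ban-6 and tt8-8, the samples farthest from the median of EGL3, r was 0.63. GL3 and MYC1 had r = 0.61 and rho = 0.44 (permutation p = 0.0151 and 0.104, adjusted 0.0755 and 0.260), and r = 0.38 without tt8-7 and tt8-11, so that relation rests on these samples. TT8 and GL3 had r = 0.38 and rho = 0.67 over the 9 samples outside tt8 and ttg1 (exact permutation p = 0.318 and 0.0589, adjusted 0.530 and 0.260), and r = 0.75 without ban-6 and tt1-5. No pair had an adjusted p under 0.05. TT8 and TTG1 had r = −0.58 and rho = −0.60 over the same 9 samples (exact permutation p = 0.0985 and 0.0968, adjusted 0.328 and 0.260).

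Genes known to act with or under the complex were described from 6 lists of 50 genes. Among the flavonoid targets 11 of 13 genes were tested in ttg1 against the reference libraries, and 7 were lower and 0 higher, with a median log2 fold change of −4.79 where all genes had −0.01. Their share of lower calls compares with 0.194% over all genes. LDOX was at 0.260 and 0.124 CPM in ttg1-23 and ttg1-24 against 19.7 to 94.9 CPM and fell by 7.99 ± 1.16 (adjusted p = 0.0202). GSTF12 fell by 7.67 ± 1.11, the xylosyltransferase gene UGT79B1 by 6.97 ± 0.97 and the malonyltransferase gene 5MAT by 5.14 ± 0.71 (adjusted p = 0.0202 each). DFR, at 0.593 and 0 CPM, fell by 8.72 ± 1.42 (adjusted p = 0.0266), and UGT75C1 and 3AT1 also passed. With 0 DFR counts in ttg1-24 the fitted DFR value is no bound, and its reference includes the tt3 lines, which are labelled as mutants of DFR itself. None of the 7 passed without ttg1-24, where 0 of all genes did.

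The epidermal targets and the inhibitory MYB genes each had 1 called member. TTG2, a WRKY factor of trichomes and seed coat, was at 5.19 and 3.6 CPM in ttg1 against 15.7 to 33.5 CPM and fell by 2.28 ± 0.26 (adjusted p = 0.0150), while GL2, a homeobox factor of the same cells, stood at −1.34 ± 0.34 (adjusted p = 0.0826). The median of these 3 targets was −1.34. MYBL2, a small MYB repressor of the complex, was at 1.85 and 1.61 CPM against 5.66 to 19.2 CPM and fell by 2.32 ± 0.43 (adjusted p = 0.0364). The 6 inhibitory MYB genes tested had a median of −0.36, and 2 of the 8 were too low to test.

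No MYB partner passed the threshold. Of 9 genes 5 were tested, 0 passed in edgeR and 2 reached an unadjusted p under 0.05, with a median of −0.82. The anthocyanin activator PAP1 was at 21.7 and 13.2 CPM in ttg1 against 3.97 to 13.8 CPM (1.20 ± 0.34, adjusted p = 0.109), and its relative MYB113 was at 1.22 and 1.12 CPM against 0.688 to 9.10 CPM (−1.55 ± 0.66, adjusted p = 0.239). The tannin MYB gene TT2 and the trichome MYB gene GL1 had at most 1 and 2 counts in any sample. Of 8 tested factors acting on the complex 0 passed and 2 had an unadjusted p under 0.05: UPL3, whose ubiquitin ligase acts on GL3 and EGL3 protein, at −0.30 ± 0.14, and the jasmonate repressor gene JAZ1 at 0.40 ± 0.18. Of 7 tested sequence relatives 0 passed and 2 had an unadjusted p under 0.05. The WD40 gene LWD1, a relative of TTG1, stood at 0.48 ± 0.14 (51.3 and 49.3 CPM against 33.1 to 40.6 CPM, adjusted p = 0.109). Its level in tt8-7 was also 50.7 CPM. The jasmonate bHLH gene MYC3 was at 0.31 ± 0.10 (adjusted p = 0.152). Over all genes 3838 of 21184 had an unadjusted p under 0.05 in this comparison, so these counts per list are no result about the lists.

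In the tt8 libraries 0 genes of the 6 lists passed in edgeR and DESeq2 called 0 genes in all. The flavonoid targets had a median of 0.56, led by 5MAT at 1.01 ± 0.30 (unadjusted p = 0.00584) and UGT79B1 at 1.16 ± 0.35 (unadjusted p = 0.00618). The flavonoid hydroxylase gene TT7 at 1.06 and, in the other direction, the proton pump gene AHA10 at −0.61 also reached an unadjusted p under 0.05. So did 1 MYB partner and 2 factors acting on the complex, and 521 of the 21184 genes tested. The other lists had medians from −0.06 to 0.32. By the smallest p, PAP1 stood at 0.67, PAP2 at 0.39, MYBL2 at 0.47, the inhibitory MYB gene CPC at 0.31 and TTG2 at 0.27. The cell cycle inhibitor SIM stood at −0.48, the nitrogen-responsive factor LBD38 at −0.81 and JAZ1 at 0.30. The bHLH repressor JAM1 was at 0.35 and LWD2 at 0.18, and each of these genes had an adjusted p of 1.

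The levels of MYC2 and MYB5 could not be read. Both were listed at 0 in every sample, and 98.5% and 100% of their exon bases are shared with a gene on the other strand. Of the 1298 loci with over 95% of exon bases shared, 94.1% had 0 counts in all samples, against 11.5% of the 22777 loci with no shared base. A listed 0 at such a gene does not describe its transcript.

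The genes whose levels ran most like each of the 5 were taken by Pearson r of log2(CPM + 1) among the genes tested. Over the 9 samples outside tt8 and ttg1, TT8 was most like AT4G23110 (r = 0.982), the carboxypeptidase-like gene scpl10 (0.971), AT1G68380 (0.962), CYP705A23 (0.957) and MYB62 (0.950), and 40 genes had r over 0.9. When the ttg1 libraries were added (11 samples), the nearest were GSTF12 (0.989), 5MAT (0.983), 3AT1 (0.981), UGT75C1 (0.979) and LDOX (0.979), and 0 of 5 genes were shared between the lists. At each gene of the second list the ttg1 libraries lay below the 9 other samples.

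For the other genes likeness was taken over 15 samples outside ttg1. GL3 ran most like AT2G04090 (0.913), GATA17 (0.891), KT5 (0.890), AT2G43580 (0.884) and AT3G59540 (0.877). EGL3 ran most like the aldolase gene FBA7 (0.880), AT1G76620 (0.868), THI2.2 (0.864), the receptor kinase gene ER (0.864) and AT1G19720 (0.855). MYC1 ran most like AT2G39300 (0.904), AT2G28050 (0.895), emb2742 (0.893), AT4G16140 (0.885) and AT3G48710 (0.877). TTG1, which hardly varied, ran most like GAMMA-VPE (0.886), AT5G57070 (0.877), LHCA1 (0.877), PARVUS (0.862) and PATL1 (0.857). None of the 5 genes was among the nearest of another. The comparison ran over 21183 genes and few samples, so these values rank genes and carry no test.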

How the data were processed

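RNA of Arabidopsis seedlings was sequenced from a stranded mRNA kit, per the labels' protocols. The deposited values were raw counts per gene. HISAT2 and the build TAIR10 are named in the submitters' processing notes. The counting program and its strand setting are not given in the sources used. Loci sharing nearly all exon bases with another gene were mostly at 0. Small RNA features, 0.00637% to 0.0204% of counts, stayed out of library sizes and tests. All 32547 loci matched the RefSeq annotation of TAIR10.1, which gave positions, symbols and exon lengths.

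The 18 files were reduced to 17 samples, the Col-0 files entering as their rounded mean. One edgeR 4.0.16 fit (R 4.3.3) over 7 groups used TMM scaling (factors 0.92 to 1.07), filterByExpr by group (21184 genes kept), the robust quasi-likelihood F-test with 10 residual degrees of freedom, and two-sided Benjamini-Hochberg adjustment over all genes at 0.05. The SE is no output of edgeR: it is the absolute log2 fold change divided by the square root of the F statistic. Where a library has no counts, both depend on the prior count. Alleles of a locus served as its samples, and nothing says that they came from separate cultures, so the p-values reflect the spread among these samples alone, which may be technical. Col-0 was taken to vary like the other groups. Each gene had 1 spread for all groups, so alleles outside a contrast also enter its error. DESeq2 1.42.0, other scaling, filters, terms for file line ends and for SAIL lines, and leaving out each library were alternatives. Simulated data had 200 genes changed by 2 or 4 on the log2 scale. The ttg1 comparison recovered 65.7% and 94.8% of these over 20994 genes, and the tt8 comparison 88.9% and 98.0% over 21045 genes. Each simulated gene varied independently around 1 mean, and the alleles of the changed locus were shifted alike. Those shares therefore do not measure recovery in the real libraries, where alleles differ and genes move together. Relations between genes used two-sided permutation tests with 100000 resamples, exact for 9 samples.

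Counts of 0 are given with a floor of 3 counts. The genes and lists were chosen with earlier results of these data known. Named genes are the 5 genes, up to 4 called genes per list by smallest adjusted p or else up to 2 by smallest p, neighbours over 10 times below the lowest other sample, and the 5 most alike genes. DFR, UGT75C1, 3AT1, GL2, TT2, GL1, MYC2, MYB5, PRR5, BGLU31, BGLU32, AHA10 and TT7 were named after their values were seen. Protein sequences were not used here.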

Additional observations from a re-analysis of the deposited data

Results flagged for a closer look

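EGL3 in tt8-8, at 2.32 CPM, stood apart from the other 5 tt8 libraries, which lay between 5.80 and 7.60 CPM. The gap to the nearest of them was 0.659 of the range of the group. A test of this kind sets a value apart in about 1 of 20 groups by chance. It was run at both ends for each of the 5 genes, and this was the only value past the cut of 0.625. GL3 and MYC1 in tt8-8, at 2.91 and 2.40 CPM, were next to the lowest of the tt8 libraries, and TT8 there was the highest of all samples at 102 CPM. The library is one of 4 files with Windows line ends, as is tt8-11, where EGL3 was at 5.88 CPM. The cause was not tested.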

How the results depend on the processing

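Each comparison was repeated under other settings, and the direction of TT8, GL3, EGL3, MYC1 and TTG1 in ttg1 against the reference libraries held under all of them. The number of genes called there was 1128 with DESeq2, 383 with the Col-0 files as 2 samples, 8 with the compared libraries alone, 51 with a line-end term, 29 with Unix files alone and 264 with a term for SAIL lines, and 0 to 598 when 1 library was left out. TT8 was at −5.01 with DESeq2 and −4.88 with the compared libraries alone. It was −6.05 to −4.51 without 1 library, past the threshold in none of these. GL3 was at −1.71 with DESeq2, at −1.74 when the Col-0 files counted as 2 samples, and at −2.19 to −1.47 without 1 library, past the threshold without tt8-7. Without 1 library EGL3 ran from −0.95 to −0.40, MYC1 from −1.14 to −0.26 and TTG1 from −11.84 to −0.66. The −11.84 comes from ttg1-24 alone, a fitted fold over 0 counts that depends on the prior count and is no bound.

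In tt8 against the reference libraries 0 to 3 genes were called without 1 library (2 without ban-7, 3 without tt1-4). TT8 ran from 0.79 to 1.51, GL3 from −0.21 to 0.08, so that its sign changed, EGL3 from −0.37 to −0.06, MYC1 from −0.32 to 0 and TTG1 from 0 to 0.07. TTG1 was at −0.14 with a term for SAIL lines.

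For the mutants against Col-0 the number called was 1352 with DESeq2, 285 without the filter, 4453 with the Col-0 files as 2 samples, 15 with the line-end term and 246 (without tt8-10) to 1365 (without ban-6) without 1 library, at most 308 of them without a tt3 or tt5 allele, tt8-9, tt8-11 or tt8-12. With the line-end term, which rests on the tt8 libraries alone, TT8 was at 0.48, GL3 at 0.18 and EGL3 at −0.22. Without 1 library TT8 ran from −0.28 to −0.01, GL3 from −0.14 to −0.02, EGL3 from 0.33 to 0.56, MYC1 from 0.35 to 0.56 and TTG1 from −2.36 (without ttg1-23, adjusted p = 0.00049, again fitted over 0 counts and no bound) to −0.50. Col-0 has Windows files only, so Unix files alone gave no value. By locus, 1 of 30 pairs passed with DESeq2 and 2 when Col-0 counted as 2 samples, all of them TT8 or GL3 in ttg1. As the Col-0 files differ by less than sampling noise, counting them as 2 samples understates the spread behind those calls. EGL3 in ttg1 was at 0.00 with the Col-0 files as 2 samples. The cause of these differences was not tested. No paired analysis was possible because the labels give no replicate number shared across groups: each mutant library is another allele, and the numbers given to them here only name samples. Depth limits the values of ttg1-24, with 8 GL3 and 2 TT8 counts.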
